A study of Mus musculus with 22 samples.

Results

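The enzymes that build cholesterol, the proteins that sense sterols and the carriers that move them were followed as a group of 28 mouse genes, called members here. The members were taken by name from a list that was chosen with earlier results of these data known. All 28 were found among the 30170 genes of the count table. All 28 also passed the filter on low counts that left 14520 genes for testing. They fall into 8 genes of the early arm of the pathway, from acetyl-CoA to prenyl diphosphates, 12 genes of the sterol arm, from squalene to cholesterol, 4 genes of sterol sensing and 4 genes of sterol movement. RNA was sequenced from C3H 10T1/2 cells, a mesenchymal stem cell line of the mouse with the capacity to become fat cells, which had been made to express WT DNMT3A1, a DNA methyltransferase, or its mutants W330R and W330R-R181E. There were 22 libraries in 11 conditions of 2 libraries each. WT and W330R were sampled undifferentiated and on days 2, 4 and 6 of adipocyte differentiation, and W330R-R181E on days 2, 4 and 6 only. Differentiating cells of every genotype received isobutylmethylxanthine, dexamethasone, insulin and troglitazone for the first 2 days and insulin alone after that, in medium with serum. The undifferentiated cells were grown in serum medium without these agents. The double mutant is R181E in the sample labels and R181A in the names of its count columns, and it is called W330R-R181E here. The labels do not say whether a genotype is 1 line or several, so genotype and line cannot be told apart. They also do not say whether the 2 libraries of a condition come from separate cultures, so that p-values measure the spread between these libraries, which may be technical.

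Cholesterol is made from acetyl-CoA through mevalonate, farnesyl diphosphate, squalene and lanosterol. The transcription factor SREBP2, encoded by Srebf2, is held in the endoplasmic reticulum by its escort Scap and the Insig proteins when sterols are plentiful. When sterols run low, Scap carries it to the Golgi, where it is cut, and its released part switches on most genes of the pathway. Oxysterols act through the LXR receptors, which switch on exporters such as Abca1. Fat cells hold a large store of cholesterol, and serum in the medium is a source of cholesterol from outside.

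Gene counts summed to 8859501 in the smallest library and 47453908 in the largest (median 19355792), and the lowest count of a member in any library was 82. Levels are given as CPM, counts relative to library size after TMM scaling, and differences as log2 fold changes with their standard error (SE) from 1 edgeR quasi-likelihood fit of all 22 libraries. A member was called where its p, adjusted by Benjamini-Hochberg over all genes tested, was under 0.05. The undifferentiated pairs were far more alike than the others: the median gap between the libraries of a pair over the members was 0.049 (WT) and 0.056 (W330R) on the log2 scale, against 0.094 to 0.458 on days 2 to 6. The column names of these 4 libraries also follow another pattern than the other 18, so that the step from undifferentiated cells to day 2 and any difference in handling cannot be told apart. Dnmt3a ran from 68.5 to 347 CPM, and its level cannot tell the alleles apart. Of the mesenchymal markers, Col1a1, Col1a2, Vim and Pdgfrb were at 24.8 CPM or more in every library. Thy1 ran from 0 to 73.9 CPM and Ly6a from 0.328 to 486. Of the epithelial markers, Epcam was at 0 throughout and Cdh1 ran from 0 to 3.67 CPM. Of the smooth muscle and myogenic markers, Myod1 was at 0 throughout and Myog reached 0.108 CPM. In the same list Tagln ran from 0.925 to 7.11 CPM and Acta2 from 8.07 to 1240.

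**Figure D1:**
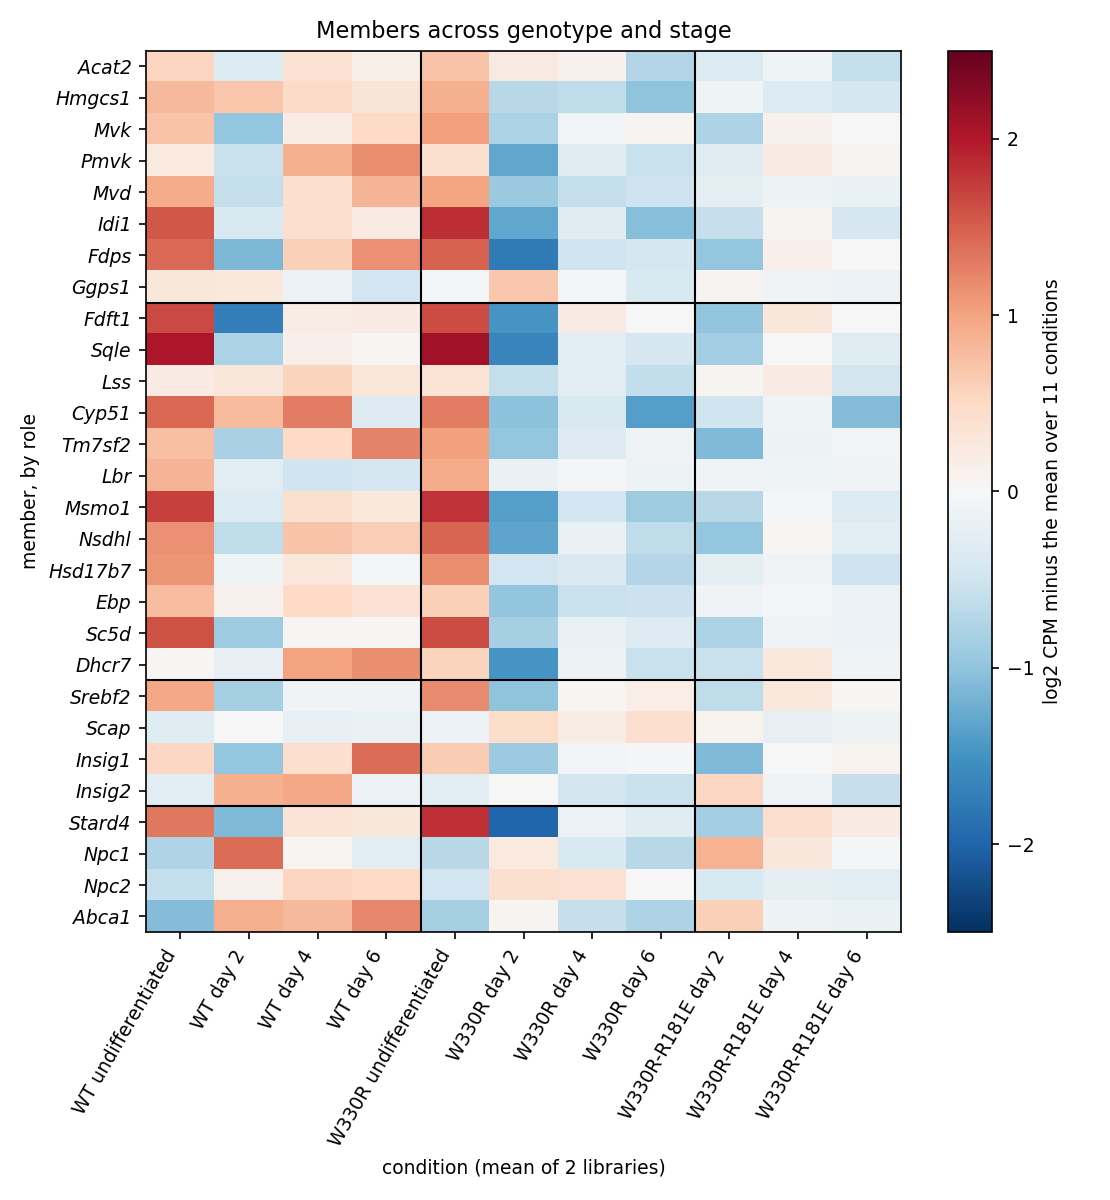
Level of each member (rows, by role) in each of the 11 conditions (columns, mean of 2 libraries), as log2 CPM minus the gene's mean over the conditions. Most rows are high in undifferentiated cells, low on day 2 and partly recovered by day 6 in WT, and on days 2 to 6 most stay below their mean in W330R.

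Most synthesis genes fell when WT cells began to differentiate and rose again while they matured. From undifferentiated cells to day 2, 17 members fell and 3 rose, where 24.4% of all genes tested fell and 26.5% rose. The median log2 fold change of the members was -1.17, against 0.06 over all genes. From day 2 to day 6, 15 members rose and 4 fell, against 14.8% and 11.8% of all genes, with a median of 0.60 against 0.02. Both steps use the same 2 WT libraries of day 2, so their values stand side by side and are not independent.

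The largest fall was that of Fdft1, squalene synthase, which commits farnesyl diphosphate to sterols. It stood at 186 and 182 CPM in the undifferentiated WT libraries, 15.1 and 20.4 on day 2, 63.7 and 70.0 on day 4 and 71.1 and 64.1 on day 6. It was 10.3-fold lower on day 2 than before differentiation and 3.79-fold higher on day 6 than on day 2 (adjusted p = 6.92e-07 and 0.00026). Sqle, squalene epoxidase and a rate-limiting step, went from 508 and 510.2 CPM to 60.6 and 84.5 on day 2 and 122 and 137 on day 6. Its recovery was partial, with day 6 still far below the undifferentiated level in both libraries. Fdps, which makes farnesyl diphosphate, went from 250.3 and 256 CPM to 25.9 and 61.1 on day 2, where its 2 libraries were farthest apart of all members, and to 193 and 225 on day 6. Srebf2 itself followed the same course, from 411 and 380.4 CPM to 87.4 and 138 and 194 and 186. Insig1, a target of SREBP2 that retains the Scap complex, ended above its undifferentiated level in both libraries. It went from 224 and 220.5 CPM to 76.9 and 81.9 on day 2 and 375 and 449 on day 6, 5.19-fold higher on day 6 than on day 2 (adjusted p = 3.73e-07).

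The 3 members that rose at day 2 act in sensing and movement. Npc1, which lets cholesterol out of late endosomes, rose from 59.8 and 52.5 CPM to 180.5 and 318 and was back at 66.7 and 90.6 by day 6. Insig2, the second Insig protein, rose from 58.6 and 59.8 to 126 and 140.4 CPM and stood at 58.4 and 70.4 on day 6. Abca1, the exporter of cellular cholesterol, rose from 48.9 and 50.4 to 198 and 199 CPM and stood at 165 and 319 on day 6, without a called change between days 2 and 6. Npc1 thus peaked on day 2, when Fdft1, Sqle and Fdps were lowest in WT, and Insig2 was high on days 2 and 4, at 92.5 and 187 CPM on day 4. The other 2 members that fell from day 2 to day 6 in WT were Ggps1 (log2 fold change -0.74 ± 0.21), which makes geranylgeranyl diphosphate for protein prenylation, and Cyp51 (-1.12 ± 0.33), lanosterol demethylase.

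Some members also rose in both mutants after day 2, with a median over all members near 0 in W330R-R181E. In W330R, 11 members rose and 3 fell from day 2 to day 6 (13.6% and 11.3% of all genes), and in W330R-R181E 9 rose and 3 fell (12.9% and 10.3%). The median log2 fold change of the members was 0.42 in W330R and 0.14 in W330R-R181E, against 0.015 and -0.005 over all genes. Tm7sf2, a sterol reductase, was 4.16-fold higher on day 6 than on day 2 in WT, 1.84-fold higher in W330R and 2.08-fold higher in W330R-R181E. Pmvk, phosphomevalonate kinase, was 3.29-fold higher in WT and 1.66-fold higher in W330R, and in W330R-R181E its log2 fold change of 0.36 ± 0.21 was not called. The difference of this change between W330R and WT was not called for Tm7sf2 or Pmvk (adjusted p = 0.154 and 0.344), and that between W330R-R181E and WT was not tested. With 1 library left out, the median of W330R ran from 0.24 (without its day 2 replicate 1) to 0.49 (without its day 2 replicate 2). That of W330R-R181E ran from -0.04 (without its day 2 replicate 1) to 0.55 (without its day 2 replicate 2). Fewer members were called in each of these fits, and in most of them fewer of all genes. Fitted on each genotype's own conditions only, 16 members were called in W330R (28.4% of all genes), 11 in WT (7.93%) and 0 in W330R-R181E (0.619%, with 9 members at an unadjusted p under 0.05), so that the order of the counts depended on the libraries fitted.

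In undifferentiated cells no member was called between W330R and WT by edgeR or by DESeq2. Of all genes tested, 0.792% were higher and 0.957% lower in W330R. At an unadjusted p under 0.05 there was 1 member, Stard4, a cytosolic sterol carrier. It stood at 125 and 137 CPM in WT and 189.7 and 187 in W330R (log2 fold change 0.52 ± 0.23, adjusted p = 0.357). The median of the members was 0.11, and the estimates ran from -0.33 for Ggps1 to 0.54 for Dhcr7, the reductase that ends the pathway, with 24 above 0. The answer depended on the libraries fitted: a fit of the 4 undifferentiated libraries alone, with their narrow spread, called 13 members higher and 2 lower in W330R, and also 17.2% of all genes higher and 18% lower. The largest of these was Dhcr7 at 0.56 ± 0.07, and the 2 lower ones were Ggps1 at -0.32 ± 0.07 and Cyp51 at -0.15 ± 0.03.

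During differentiation the synthesis genes were lower in W330R than in WT. Averaged over days 2, 4 and 6, 19 of 28 members were lower and 1 was higher in W330R, where 14.8% of all genes tested were lower and 14.3% higher. The median log2 fold change of the members was -0.71, against 0.02 over all genes. The 19 comprised 5 of 8 genes of the early arm, 9 of 12 of the sterol arm, 2 of 4 of sensing and 3 of 4 of movement, with medians of -0.94, -0.82, -0.27 and -0.66. For 14 members both W330R libraries were below both WT libraries on each of the 3 days, an order that 9.5% of all genes tested showed. The same 20 members were called with DESeq2, with RLE scaling, with no filter on low counts, with the replicate number as a block, in the fit of these conditions alone and when any 1 library was left out.

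**Figure D2:**
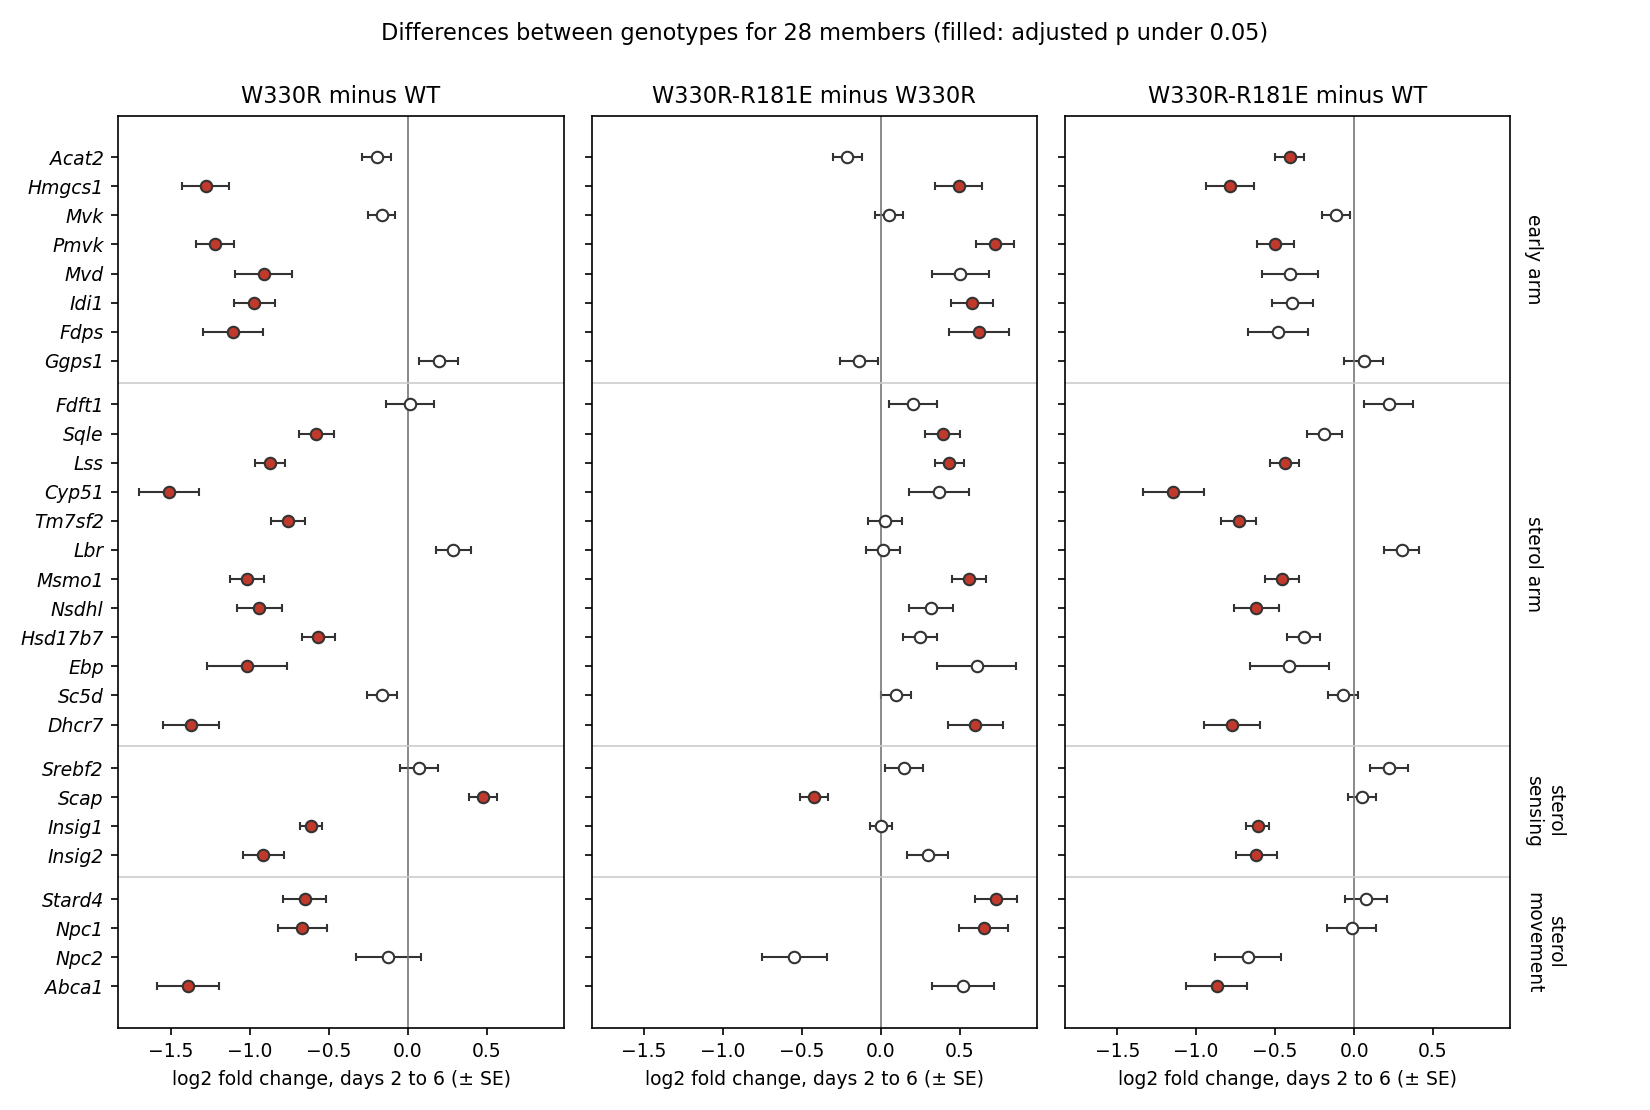
Log2 fold change of each member (rows, by role) averaged over days 2 to 6, as point and SE, for W330R minus WT, W330R-R181E minus W330R and W330R-R181E minus WT. Filled points passed an adjusted p of 0.05; the left panel has 19 filled points below 0 and 1 above, the middle panel 10 above and 1 below, and the right panel 12 below. The panels share libraries.

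In the early arm, the condensation and phosphorylation steps moved unequally. Hmgcs1, which makes HMG-CoA, stood in WT at 493 and 649.7 on day 2, 424 and 571 on day 4 and 345 and 546 on day 6 CPM. In W330R it stood at 256 and 182 on day 2, 250.1 and 208 on day 4 and 173 and 179.5 on day 6 CPM. The groups did not overlap on any day, and the average was 2.43-fold lower in W330R (log2 fold change -1.28 ± 0.15, adjusted p = 6.71e-05). Pmvk stood in WT at 18.5 and 29.7 on day 2, 53.7 and 76.7 on day 4 and 75.6 and 83.4 on day 6 CPM and in W330R at 13.3 and 15.5 on day 2, 28.1 and 29.6 on day 4 and 25.4 and 22.4 on day 6 CPM. Its level thus rose from day 2 to day 6 in each genotype but from a lower start and to a lower end in W330R, 2.33-fold lower on average (-1.22 ± 0.12, adjusted p = 2.2e-05). Fdps was 2.15-fold lower (-1.10 ± 0.19), with the day 2 groups overlapping and those of days 4 and 6 apart. Idi1, the isomerase of isopentenyl diphosphate, was 1.96-fold lower (-0.97 ± 0.13), and Mvd, which makes isopentenyl diphosphate, 1.88-fold lower (-0.91 ± 0.18). The 3 members of this arm that were not called had smaller estimates: Acat2, the thiolase that opens the pathway, at -0.20 ± 0.09, Mvk, mevalonate kinase, at -0.17 ± 0.09 and Ggps1 at 0.20 ± 0.12.

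In the sterol arm the largest difference was that of Cyp51, which removes a methyl group from lanosterol. It stood in WT at 267 and 467 on day 2, 407 and 626 on day 4 and 144 and 195 on day 6 CPM and in W330R at 136 and 73.0 on day 2, 195 and 132 on day 4 and 84.0 and 78.3 on day 6 CPM. Both genotypes were lower on day 6 than on day 4, the groups were apart on each day, and W330R was 2.85-fold lower on average (-1.51 ± 0.19, adjusted p = 0.000118). Dhcr7 stood in WT at 30.6 and 51.6 on day 2, 82.0 and 110.3 on day 4 and 98.6 and 113 on day 6 CPM and in W330R at 12.7 and 21.5 on day 2, 46.8 and 39.9 on day 4 and 35.2 and 29.8 on day 6 CPM. Its level rose from day 2 to day 6 in both genotypes, and the 6 W330R libraries lay at or under 46.8 CPM. On average W330R was 2.59-fold lower (-1.37 ± 0.18, adjusted p = 0.000129). Msmo1, Nsdhl and Hsd17b7, which together strip methyl groups from the sterol ring, were 2.03-fold lower, 1.92-fold lower and 1.48-fold lower in W330R. Ebp, a sterol isomerase, was 2.02-fold lower, Lss, lanosterol synthase, 1.83-fold lower, Tm7sf2 1.69-fold lower and Sqle 1.49-fold lower.

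Fdft1, which stands between Fdps and Sqle in the pathway, had an estimate near 0. It stood in WT at 15.1 and 20.4 on day 2, 63.7 and 70.0 on day 4 and 71.1 and 64.1 on day 6 CPM and in W330R at 18.7 and 23.4 on day 2, 70.4 and 63.8 on day 4 and 58.3 and 59.2 on day 6 CPM. The groups overlapped on days 2 and 4, W330R was the lower on day 6, and the average difference was 0.01 ± 0.15 (adjusted p = 0.965). Sc5d, a sterol desaturase, had -0.16 ± 0.10. Lbr, a sterol reductase of the same step as Tm7sf2 that also anchors the nuclear lamina, had 0.29 ± 0.11 (adjusted p = 0.0635). Of this pair of reductases, Tm7sf2 was therefore called lower in W330R and Lbr was not called, with an estimate above 0.

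**Figure D3:**
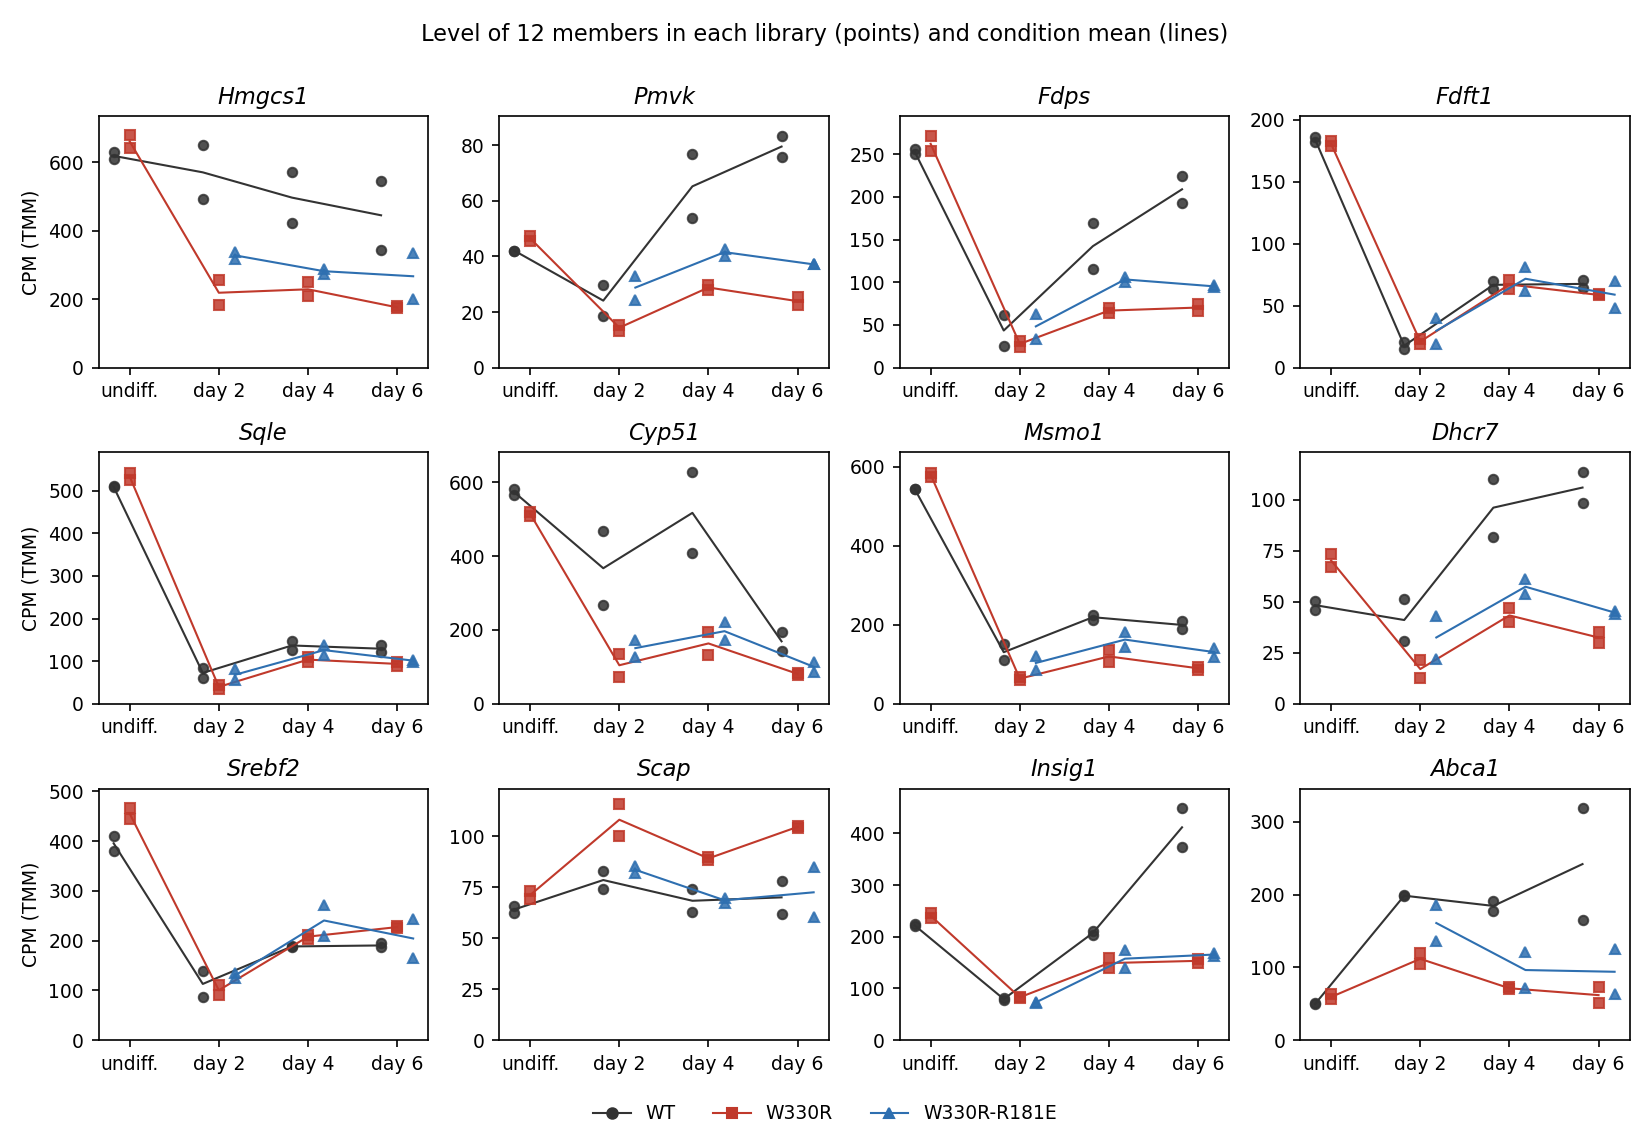
CPM of 12 members by stage in WT, W330R and W330R-R181E, with 1 point for each of the 2 libraries of a condition and lines through the condition means; each panel starts at 0. Hmgcs1, Cyp51 and Dhcr7 are lower in W330R than in WT on each of days 2, 4 and 6, the Fdft1 lines run together, and Scap is highest in W330R.

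Srebf2, the gene of SREBP2, had no called difference while most of its targets were lower. It stood in WT at 87.4 and 138 on day 2, 187 and 189.8 on day 4 and 194 and 186 on day 6 CPM and in W330R at 89.8 and 111 on day 2, 212 and 204 on day 4 and 229 and 226 on day 6 CPM. The groups overlapped on day 2, W330R was the higher on days 4 and 6, and the average difference of 0.07 ± 0.12 was not called (adjusted p = 0.687). Scap, its escort, was the 1 member called higher in W330R. It stood in WT at 74.2 and 82.8 on day 2, 74.1 and 62.6 on day 4 and 78.1 and 61.9 on day 6 CPM and in W330R at 100.3 and 116 on day 2, 90.0 and 88.2 on day 4 and 105 and 104 on day 6 CPM. The W330R libraries were the higher on each day, 1.39-fold higher on average (0.47 ± 0.09, adjusted p = 0.0014). Insig1 was 1.53-fold lower and Insig2 1.89-fold lower in W330R. They differed in timing: Insig2 was called lower on days 2 and 4 and Insig1 on days 4 and 6.

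Among the genes of sterol movement, Abca1 stood in WT at 198 and 199 on day 2, 177 and 191 on day 4 and 165 and 319 on day 6 CPM and in W330R at 104 and 119 on day 2, 69.5 and 72.8 on day 4 and 50.6 and 72.9 on day 6 CPM. The groups did not overlap on any day, and W330R was 2.62-fold lower on average (-1.39 ± 0.20, adjusted p = 0.000229). The exporter, known as a target of LXR, thus differed in the same direction as the synthesis genes. Npc1 was 1.59-fold lower in W330R and Stard4 1.57-fold lower. Npc2, the soluble partner of Npc1 in the lysosome, had -0.12 ± 0.21 and was not called, with WT libraries that ran from 724 to 1584 CPM over the 3 days.

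Within single days, each with 2 libraries a genotype, 9 to 15 members were called. On day 2, 9 members were lower (1.18% of all genes lower, 1.88% higher), on day 4, 11 (3.4% lower, 2.73% higher), and on day 6, 14 were lower and 1 higher (5.23% and 2.31%). The medians over the members were -0.67, -0.68 and -0.90, against 0.00, 0.02 and 0.04 over all genes. Hmgcs1, Lss, Msmo1 and Dhcr7 were called lower on each day. The day 6 list held 6 genes of the early arm, among them Pmvk (3.32-fold lower), Fdps (2.97-fold lower) and Acat2 (1.85-fold lower). Day 2 held only Hmgcs1 and Idi1 of that arm. These daily counts rest on single libraries. On each day fewer members were called without WT replicate 2 or either W330R replicate, and fewer of all genes as well. With 1 library left out, the median of the members stayed below 0. On day 2 it ran from -0.29 (without WT replicate 2) to -0.91 (without WT replicate 1). On day 4 it ran from -0.47 (without W330R replicate 2) to -0.78 (without W330R replicate 1). On day 6 it ran from -0.69 (without WT replicate 2) to -0.98 (without WT replicate 1). Fits of 1 day's WT and W330R libraries alone called 0, 0 and 4 members (15, 18 and 21 at an unadjusted p under 0.05). These fits called 0%, 0% and 0.422% of all genes.

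The change over time differed between the genotypes for 5 members. From undifferentiated cells to day 2, the change was more negative in W330R than in WT for Stard4, Msmo1 and Lss, with differences of the changes of -1.41 ± 0.33, -1.13 ± 0.26 and -1.01 ± 0.23 (adjusted p = 0.0434, 0.043 and 0.0376). These 3 lower calls stand against 0.654% of all genes called lower and 1.21% higher. Lss stood at 139.7 and 145 CPM before differentiation and 123 and 176 on day 2 in WT, and at 156 and 156 and 77.9 and 85.3 in W330R. Stard4 went from 125 and 137 to 23.0 and 26.5 CPM in WT and from 189.7 and 187 to 11.2 and 15.4 in W330R. None of the 3 calls held without WT day 2 replicate 2, W330R day 2 replicate 1 or any 1 of the undifferentiated libraries, and without WT day 2 replicate 1 there were 5, among them Msmo1 and Lss but not Stard4. Without W330R day 2 replicate 2, Stard4 was called and Msmo1 and Lss were not.

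From day 2 to day 6 the difference of the changes was called for Acat2 and Insig1, both lower in W330R, where 0.0689% of all genes (10 of 14520) were called lower and 0.0207% higher. Acat2 rose in WT from 109.9 and 134 CPM on day 2 to 154 and 192 on day 6 and fell in W330R from 171 and 189.5 to 90.3 and 97.0. The 2 genotypes thus changed places between these days, with W330R above WT in both libraries on day 2 and below it in both on day 6 (difference -1.45 ± 0.22, adjusted p = 0.0206). Insig1 began alike, at 76.9 and 81.9 CPM in WT and 83.3 and 82.3 in W330R. It reached 375 and 449 in WT and 149.6 and 157 in W330R on day 6 (difference -1.49 ± 0.17, adjusted p = 0.00821). In W330R-R181E the levels of Insig1 were 74.3 and 71.6 CPM on day 2 and 168 and 163 on day 6. The call of Acat2 was lost in 6 of 8 fits that each left out 1 library. Neither call was made without 1 of the 2 W330R libraries of day 6 or in the fit of these 4 conditions alone (6 members at an unadjusted p under 0.05).

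Genes around the pathway were divided. Of the fatty acid branch of the SREBP targets, 6 of 10 were lower and none was higher in W330R averaged over days 2 to 6. They were Scd1 (4.93-fold lower), the stearoyl-CoA desaturase of fat cells, Fasn (2.51-fold lower), fatty acid synthase, Me1 (2.16-fold lower), Scd2 (1.89-fold lower), Acaca (1.80-fold lower) and Acly (1.27-fold lower). Of 8 LXR targets and efflux genes, 4 were lower and 1 higher: Abcg1 (6.68-fold lower), a sterol exporter, Nr1h3 (3.64-fold lower), which encodes LXR alpha, Srebf1 (1.58-fold lower) and Lpcat3 (1.38-fold lower) were lower, and Mylip was 1.28-fold higher. None of the 7 genes that cut or degrade SREBP and its partners was called, with estimates from -0.23 to 0.16. Of 6 genes of the isoprenoid branch 3 were lower, Fntb (1.52-fold lower), Fnta (1.27-fold lower) and Pdss2 (1.27-fold lower), and of 5 genes of lysosomal sterol handling Lrp1 was 1.31-fold higher. The shares of all genes for this comparison, 14.8% lower and 14.3% higher, are the background of these counts.

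The summed level of adipocyte markers was also lower in W330R than in WT on days 2 to 6. The summed level of 7 markers (Adipoq, Fabp4, Plin1, Cd36, Lpl, Cidec and Retn) was 2686 and 3148 CPM in WT, 1908 and 2467 in W330R and 3220 and 4267 in W330R-R181E on day 2. On day 4 it was 4499 and 5772 in WT, 1840 and 2265 in W330R and 2881 and 3073 in W330R-R181E, and on day 6 4567 and 9067 in WT, 1392 and 1595 in W330R and 1643 and 2965 in W330R-R181E. On day 2 both W330R-R181E libraries were above both WT libraries, and in W330R the sum was lower on day 6 than on day 2. Of the 7 markers, 5 were called lower in W330R averaged over days 2 to 6 and none higher, and against W330R 3 were higher and 1 lower in W330R-R181E. Undifferentiated cells had summed marker levels of 11.8 and 12.6 CPM in WT and 14.2 and 16.3 in W330R. Of 6 mesenchymal markers 3 were higher in W330R and none lower. Macrophage, endothelial and epithelial markers summed to at most 16.4, 3.25 and 2.505 CPM in any library of days 2 to 6. The macrophage marker Adgre1 was not in the count table. Of the epithelial list only Cdh1 was tested, and at these low levels it was called higher in W330R than in WT (log2 fold change 1.67). Smooth muscle and myogenic markers summed to between 9.74 and 828.6 CPM in these libraries. On day 6 their sum was 524.9 and 225.8 CPM in WT, 629.0 and 614.1 in W330R and 828.6 and 400.1 in W330R-R181E. Of this list 2 genes were tested, and neither was called between W330R and WT averaged over days 2 to 6. The part of the adipocyte, mesenchymal and smooth muscle markers in the differences of the members was not tested. In bulk RNA, fewer cells of a type and less RNA per cell cannot be told apart.

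**Figure D4:**
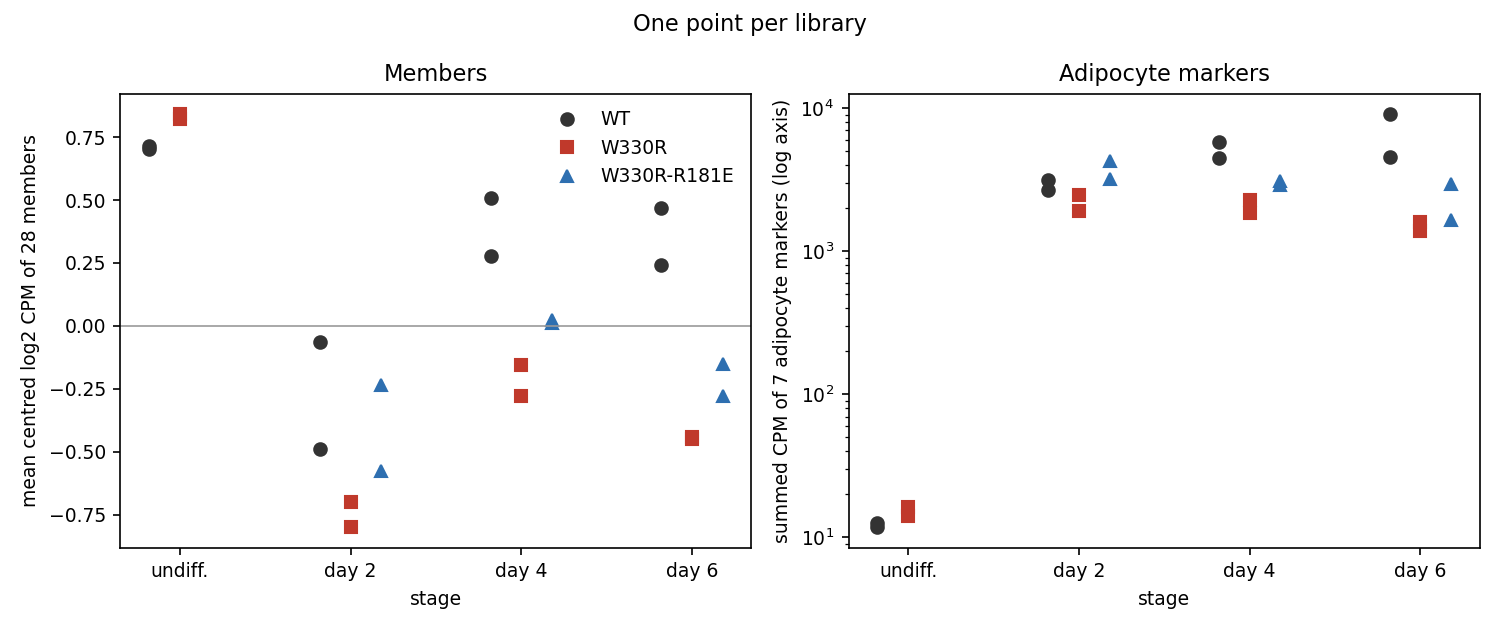
Left, mean over the 28 members of log2 CPM centred on each gene's mean, and right, summed CPM of 7 adipocyte markers on a log axis, with 1 point per library. On day 6 the members' mean lies between 0.24 and 0.47 in WT and at about -0.44 in W330R, and the markers are also lower in W330R.

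The double mutant was higher than W330R for some of the members and lower than WT for some, with members in both lists. Of the 19 members called lower in W330R than in WT, 5 were called in both. For 18 of the 19 the estimate of the double mutant lay between W330R and WT. These 19 were picked by a comparison that shares libraries with both others. Averaged over days 2 to 6, 10 members were higher and 1 lower in W330R-R181E than in W330R, where 7.87% of all genes were higher and 9.36% lower. The median was 0.34, against 0.01 over all genes. Against WT, 12 members were lower in W330R-R181E and none higher, where 5.12% of all genes were lower and 4.46% higher, with a median of -0.41 against 0.00. Both comparisons use the same 6 libraries of W330R-R181E, and each shares its other libraries with the comparison of W330R and WT.

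Hmgcs1 stood in W330R-R181E at 318 and 338 on day 2, 275 and 289 on day 4 and 199.8 and 335 on day 6 CPM. It was 1.41-fold higher than in W330R and 1.72-fold lower than in WT (adjusted p = 0.0354 and 0.00772). Pmvk, at 24.5 and 33.1 on day 2, 40.3 and 42.8 on day 4 and 37.1 and 37.2 on day 6 CPM, was 1.65-fold higher than in W330R and 1.41-fold lower than in WT. Dhcr7 was 1.52-fold higher than in W330R and 1.71-fold lower than in WT, and Msmo1 1.47-fold higher and 1.37-fold lower. Stard4 stood at 37.7 and 20.8 on day 2, 78.3 and 62.6 on day 4 and 53.3 and 68.8 on day 6 CPM and was 1.66-fold higher than in W330R, with 0.07 ± 0.13 against WT. Npc1, at 132 and 217 on day 2, 114 and 117 on day 4 and 97.3 and 87.5 on day 6 CPM, was 1.57-fold higher than in W330R, with -0.01 ± 0.15 against WT. Scap was the 1 member lower in W330R-R181E than in W330R (1.34-fold lower), at 85.2 and 81.9 on day 2, 69.7 and 67.4 on day 4 and 84.7 and 60.2 on day 6 CPM, with 0.05 ± 0.09 against WT.

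Some members were called between W330R-R181E and WT and not between W330R-R181E and W330R. Insig1 differed from W330R by 0.00 ± 0.07 and was 1.53-fold lower than in WT (adjusted p = 0.000666). Tm7sf2 differed from W330R by 0.03 ± 0.11 and was 1.66-fold lower than in WT. Cyp51, at 128 and 174 on day 2, 172 and 221 on day 4 and 87.2 and 114 on day 6 CPM, had 0.37 ± 0.19 against W330R, which was not called, and was 2.21-fold lower than in WT. Acat2 had -0.21 ± 0.09 against W330R and was 1.33-fold lower than in WT. Fewer members were called against W330R without W330R day 4 replicate 1 or 2, W330R day 6 replicate 1, or W330R-R181E day 2 replicate 2. The same held without W330R-R181E day 4 replicate 1 or day 6 replicate 2. Against WT, fewer were called without WT replicate 2 of day 2, 4 or 6. In all of these fits fewer of all genes were called as well. The calls of Fdps, Hmgcs1 and Dhcr7 against W330R were each lost in 10 of 12 fits that left out 1 library. With 1 library left out, the median of the members ran from 0.28 to 0.42 against W330R and from -0.27 to -0.52 against WT. The fit of the 6 conditions of W330R-R181E and WT alone called 3 members, and 1.18% of all genes.

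Over the 9 conditions of days 2 to 6, the members differed in how closely they followed the rest of the group. The correlation of a member's mean log2 CPM with the mean of the other members was 0.99 for Dhcr7, 0.98 for Msmo1, 0.97 for Nsdhl and 0.96 for Pmvk. It was lowest for Scap at -0.85, Lbr at -0.71 and Ggps1 at -0.67. With the 2 undifferentiated conditions added, Nsdhl led with 0.99 over 11 conditions, and Scap remained lowest at -0.81. Fdft1 had 0.59 over days 2 to 6 and 0.82 over all conditions. These values describe condition means from shared libraries and scaling, and carry no test.

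Promoters were read to see which letters the members share. RefSeq promoter windows on GRCm38.p6, 250 bases before to 50 after a start, were at hand for 23 of the 28 members, Fdps, Fdft1, Sqle, Stard4 and Npc1 having no entry. The letters CCAAT, the box bound by NF-Y, a partner of SREBP2, stood on either strand in the windows of 20 of 23 members (87.0%), against 41.1% of 27025 genes and 42.9% of the 10261 genes tested that have a window. They stood in 14 of the 15 members called lower in W330R and in 6 of the 8 others. The core CACNCCAC of the sterol regulatory element stood in 3 of 23 windows, those of Acat2, Hmgcs1 and Insig1, against 7.12% of all genes and 7.64% of the genes tested. The E-box CACGTG stood in 6 of 23 (26.1%), against 8.09% and 11.3%. The median window of a member held 23 CpG dinucleotides, the substrate of DNMT3A, against 20 over the genes tested. Matches of different motifs did not overlap in any of the 29 windows of the members, genes with several starts were counted once, and a match is a description and no site.

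The windows of the 4 members with the largest decreases in W330R that have an entry, and of Insig1, which holds all 3 motifs, are shown from 250 bases before the start to the start, 5′ to 3′ on the strand of the gene, with matches of the 3 motifs in capitals (ATTGG is CCAAT and GTGGCGTG is CACNCCAC read on the other strand). They lie at chr5:4104698-4104947 (minus strand, Cyp51), chr4:53159896-53160145 (minus strand, Abca1), chr7:143829964-143830213 (plus strand, Dhcr7), chr13:119690101-119690350 (plus strand, Hmgcs1) and chr5:28071162-28071411 (plus strand, Insig1), all GRCm38.p6. Dhcr7 has 3 listed starts, and the one with the most matches is shown.
Cyp51: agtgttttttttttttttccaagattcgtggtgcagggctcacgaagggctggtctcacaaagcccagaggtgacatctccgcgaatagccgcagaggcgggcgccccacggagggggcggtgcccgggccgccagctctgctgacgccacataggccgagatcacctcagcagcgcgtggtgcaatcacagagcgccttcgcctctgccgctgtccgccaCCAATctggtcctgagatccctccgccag
Abca1: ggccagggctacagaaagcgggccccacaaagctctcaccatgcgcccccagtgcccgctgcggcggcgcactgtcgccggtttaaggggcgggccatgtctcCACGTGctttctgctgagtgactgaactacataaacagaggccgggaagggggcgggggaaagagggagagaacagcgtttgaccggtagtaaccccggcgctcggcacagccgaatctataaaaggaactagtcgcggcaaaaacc
Dhcr7: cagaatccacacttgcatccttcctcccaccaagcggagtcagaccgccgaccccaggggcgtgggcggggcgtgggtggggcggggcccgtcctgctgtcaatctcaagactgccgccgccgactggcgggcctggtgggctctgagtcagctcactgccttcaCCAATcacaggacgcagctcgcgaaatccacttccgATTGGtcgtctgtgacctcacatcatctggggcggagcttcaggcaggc
Hmgcs1: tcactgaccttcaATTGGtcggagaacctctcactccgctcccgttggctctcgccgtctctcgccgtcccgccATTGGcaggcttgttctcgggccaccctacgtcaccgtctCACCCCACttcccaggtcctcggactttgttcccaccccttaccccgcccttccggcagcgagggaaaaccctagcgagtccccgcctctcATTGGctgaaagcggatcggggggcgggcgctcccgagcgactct
Insig1: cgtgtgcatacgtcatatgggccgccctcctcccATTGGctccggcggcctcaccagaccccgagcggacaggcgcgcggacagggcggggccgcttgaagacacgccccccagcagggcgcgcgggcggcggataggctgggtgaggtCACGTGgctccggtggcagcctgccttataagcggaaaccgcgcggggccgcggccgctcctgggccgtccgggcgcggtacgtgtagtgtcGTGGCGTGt
Before the start, Hmgcs1 holds 3 CCAAT boxes and 1 core, Dhcr7 2 boxes and Cyp51 1 box, whereas Abca1 holds an E-box and neither of the others.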

How the data were processed

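RNA-seq counts per gene were deposited by the authors as whole counts without normalization for 22 libraries. Per the labels, total RNA was isolated with TriZol and libraries were made with a NEBNext Ultra II kit, and the submitters' processing notes name kallisto, DESeq2 1.40 and GRCm39. The annotation, read length and strand setting are not given in the sources used here, and the paper given does not describe these libraries. Estimated counts of near-identical gene copies can be shared between them. No column of other samples was found (0).

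The members, the related gene lists, the markers and the tests were chosen with earlier results of these data known. Genes were kept by filterByExpr (minimum count 10, minimum total count 15), which left 14520 of 30170. Counts were scaled by TMM and 1 quasi-likelihood model with 1 mean per condition was fitted in edgeR 4.0.16 (R 4.3.3), so that all conditions shared the spread. The SE was the log2 fold change divided by the square root of F. All 28 members are named, with values for those called and ranges for the others. Condition means of log2 CPM used a prior count of 2. The alternatives were DESeq2 1.42.0, RLE scaling, no filter, a fit of only the conditions compared, the replicate number as a block, and each library left out. The fit was tested on simulated counts with known changes. Intervals were not drawn from depth, since every member had at least 82 counts in each library.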

Additional observations from a re-analysis of the deposited data

Results flagged for a closer look

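The change over time differed between W330R and WT for 5 members in a test of the difference itself. From undifferentiated cells to day 2 the change was lower in W330R, with differences on the log2 scale of -1.41 for Stard4, -1.13 for Msmo1 and -1.01 for Lss. From day 2 to day 6 it was -1.45 for Acat2 and -1.49 for Insig1. The first 3 rest on the undifferentiated libraries, whose column names follow another pattern, and the part of that difference was not tested.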

How the results depend on the processing

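Of 148 calls of members over the 13 comparisons, 148 were made again with DESeq2, 148 with RLE scaling and 148 with the replicate number as a block, 142 without the filter on low counts and 79 in a fit of only the conditions compared. In fits that left out 1 library they were made 721 times and lost 235 times. No call changed direction. Fitted on only the conditions compared, the number of members called was 15 for W330R against WT undifferentiated (35.3% of all genes), 0 on day 2, 0 on day 4 and 4 on day 6 (0.422%), 3 for W330R-R181E against WT (1.18%), 11 for WT (7.93%) and 0 for W330R-R181E (0.619%) from day 2 to day 6, 6 for the difference of the early changes (2.55%) and 0 for that of the late changes. For the difference of the early changes, 6 were called with no filter, 6 with the replicate block and 9 with DESeq2, against 3. The correlation of same-numbered deviations from the condition means was over 0.1 in 27 of 55 pairs of conditions. All of these were among the 36 pairs of days 2 to 6, where its mean was 0.215 and its highest value 0.534. The differentiating libraries of 1 number thus tended to deviate together, and the main fit, which had no replicate block, did not take this into account. The fit with the replicate block otherwise kept each count within 1.5 times of the main one. It gave 22 calls for W330R against WT over days 2 to 6 (34.5% of all genes), against 20 (29.0%). On day 2 it gave 12 (6.26%) against 9 (3.06%), and on day 4 15 (12.7%) against 11 (6.14%). For W330R-R181E against W330R it gave 16 (21.9%) against 11 (17.2%). With 1 library left out, the counts ran from 20 to 21 for W330R against WT over days 2 to 6, 0 to 10 on day 2, 0 to 8 on day 4 and 3 to 15 on day 6. They ran from 7 to 12 for W330R-R181E against W330R and 6 to 17 against WT, 9 to 12 for W330R and 6 to 8 for W330R-R181E from day 2 to day 6, 0 to 5 for the early and 0 to 2 for the late difference of changes. The share of all genes called was lower in most of these fits as well. A lone library was then assumed to vary like the other conditions. The libraries behind these ranges are named in the report, and the cause was not tested. The lowest count of a member in any library was 82.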
